A study of Arabidopsis thaliana with 12 samples.

Results

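Leaf RNA of Arabidopsis thaliana collected at the time points titled dark 12 h and dark 20 h was compared on 4 of the 12 arrays of a time series, 2 arrays per time point. The array carries 15013 probes for 5154 transcript names: long non-coding RNAs, microRNA precursors, a small set of protein-coding genes, and 4499 transcription units known only by a code (TU). One probe was used per transcript, the one with the highest mean signal, and 3302 transcripts could be tested. All plants were of the Columbia (Col-0) accession, untreated, without transgenes named in the labels, 30 days old, and kept at 22 °C and 65% humidity in 8 h of light (145 µmol per m2 per s) and 16 h of dark. The other time points are titled light 0, 4 and 8 h and dark 16 h. The labels do not say whether the 2 replicates of a time point were taken from different plants, and the p-values therefore cover only the spread between these arrays. The series title speaks of continuous light, whereas the sample titles and the growth conditions speak of light and dark, and the labels do not tie the hours to lights-on. The time points are therefore called 12 h and 20 h.

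The circadian clock of Arabidopsis is a network of repressors that follow one another through the day. The MYB-like factors CCA1 and LHY are known to accumulate around dawn, the pseudo-response regulators PRR9, PRR7 and PRR5 follow in turn, and TOC1 comes in the evening. Clock output reaches light signalling through the phytochromes and the PIF factors, and it also drives cold, dehydration and non-coding transcripts.

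On the 12 h arrays 35.1% and 27.5% of probes were well above background, and on the 20 h arrays 26.6% and 26.9%, against 26.5% to 52.2% over the whole series. No spot was saturated. Levels of the 2 replicates correlated at r = 0.955 at 12 h and r = 0.967 at 20 h across transcripts, and the 16 h pair was the least alike (r = 0.909), which is why it stayed out of the fit. The 4 arrays lay on one slide, with the 12 h arrays in its first row and the 20 h arrays in its second, so position on the slide and time cannot be told apart. None of the 9 marker genes of leaf and other cell types that were looked for is on the array, so the tissue label could not be checked against markers. In these bulk samples fewer cells of a type and less RNA per cell cannot be told apart.

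Of the 3302 transcripts, 505 (15.3%) differed between 12 h and 20 h at an adjusted p under 0.05 in limma's test, 234 (7.09%) higher and 271 (8.21%) lower at 20 h. The smallest difference that passed was 0.61 on the log2 scale. In 55.5% of all tested transcripts the 2 arrays of one time point lay beyond the 2 of the other, so a lack of overlap alone is common here. The median difference over all transcripts was 0.03. The filter admitted transcripts measured at any time point, 16 h included, and 423 of the 3302 were not well above background on any of the 4 arrays. The number of calls rests on the spread estimated from the other time points: with the 4 arrays alone 13 transcripts passed, with the 6 arrays of 8, 12 and 20 h on the same slide 143, without the second 20 h array 236 and without either 4 h array 326. Of the 43 named transcripts that passed, 11 also passed with the 4 arrays alone, namely PRR9, CCA1, LHY, PRR7, FLORE, AT5G53048.1, AT3G06125.1, MIR167d, MIR399c, AT4TU026290 and AT4TU026300. The calls of the remaining named transcripts rest on that shared spread. Among the 11, MIR399c was not well above background on either 20 h array, and its call was lost with the 6 arrays of 8, 12 and 20 h. The plot of difference against level shows which kinds of transcript lay far from 0.

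**Figure D1:**
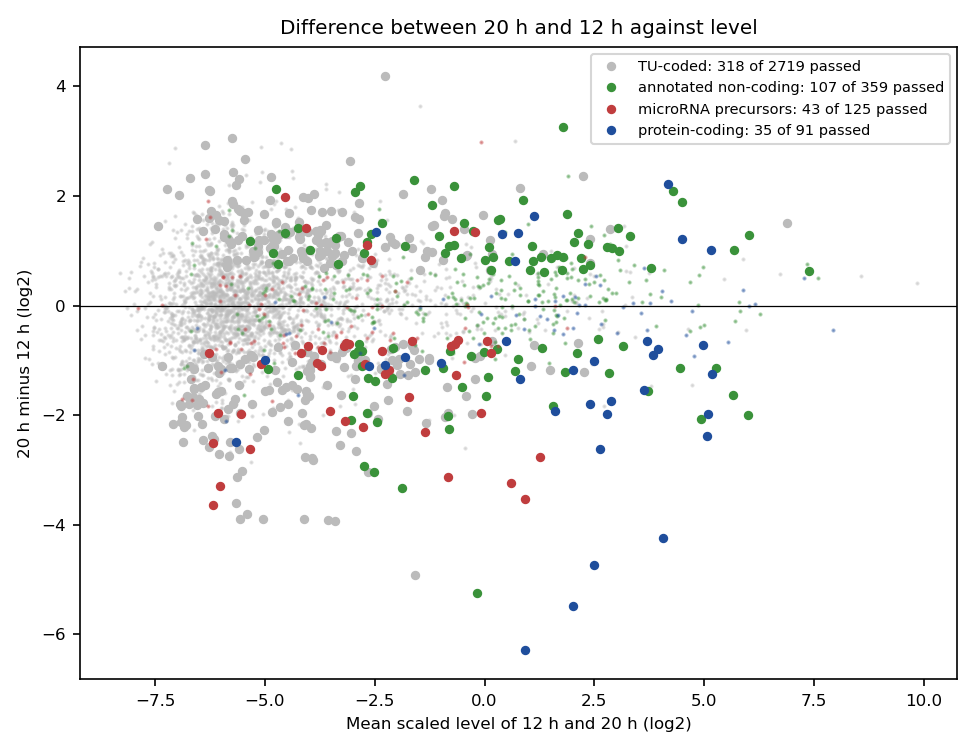
The difference between 20 h and 12 h (log2, vertical) is plotted against the mean level of the 4 arrays (log2, scaled to the 75th percentile of each array, horizontal) for the tested transcripts; large points passed the test and colours give the kind of transcript. Protein-coding clock genes reach the lowest differences, down to -6.29.

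The clock genes PRR9 and CCA1 had the largest differences of all tested transcripts. Of the 17 clock genes looked for, 8 are on the array, of which 5 fell, 2 rose and 1 did not pass. The earliest genes of the daily sequence (CCA1, LHY, PRR9 and PRR7) were high at 12 h and low at 20 h, and the latest (TOC1 and PRR3) were higher at 20 h. These counts were identical under all 6 other scalings and background corrections that were tried.

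PRR9, a pseudo-response regulator that represses CCA1 and LHY, had scaled levels (log2 of the processed signal minus the array's 75th percentile) of 4.04 and 4.07 on the 12 h arrays and -2.31 and -2.16 on the 20 h arrays. It was the transcript with the largest fall on the whole array, by 6.29 ± 0.17 on the log2 scale (SE; 78.2-fold lower at 20 h, adjusted p = 7.1e-06). CCA1 had levels of 4.99 and 4.50 at 12 h and -0.76 and -0.70 at 20 h. It fell by 5.47 ± 0.21 (44.4-fold, adjusted p = 3.2e-05). LHY, its close relative and partner, had levels of 4.73 and 4.98 at 12 h and 0.22 and 0.00 at 20 h. It fell by 4.74 ± 0.19 (26.7-fold, adjusted p = 3.2e-05). In all 3 genes the replicates lay far closer to each other than to the arrays of the other time point.

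PRR7 followed the same direction, from 5.97 and 6.40 at 12 h to 1.75 and 2.15 at 20 h, a difference of -4.23 ± 0.23 (adjusted p = 0.00013). PRR5, which acts later in the sequence, was at 3.94 and 3.59 at 12 h and at 1.92 and 1.65 at 20 h. Its difference of -1.98 ± 0.20 (adjusted p = 0.0012) was smaller than those of PRR9 and PRR7. TOC1, the evening regulator that represses CCA1 and LHY, was at 3.01 and 3.14 at 12 h and at 5.27 and 5.30 at 20 h, so both 20 h arrays were higher. Its rise was 2.21 ± 0.16 (4.64-fold, adjusted p = 0.00042). PRR3, a regulator known to stabilise the TOC1 protein, rose by 1.33 ± 0.20 (adjusted p = 0.0074), from -0.01 and 0.20 to 1.29 and 1.55, a call that was lost with the 6 arrays of 8, 12 and 20 h. CHE, a repressor of CCA1 from the TCP family, did not pass: its levels were 4.03 and 4.39 at 12 h and 4.28 and 4.30 at 20 h (difference 0.08 ± 0.18, adjusted p = 0.82).

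**Figure D2:**
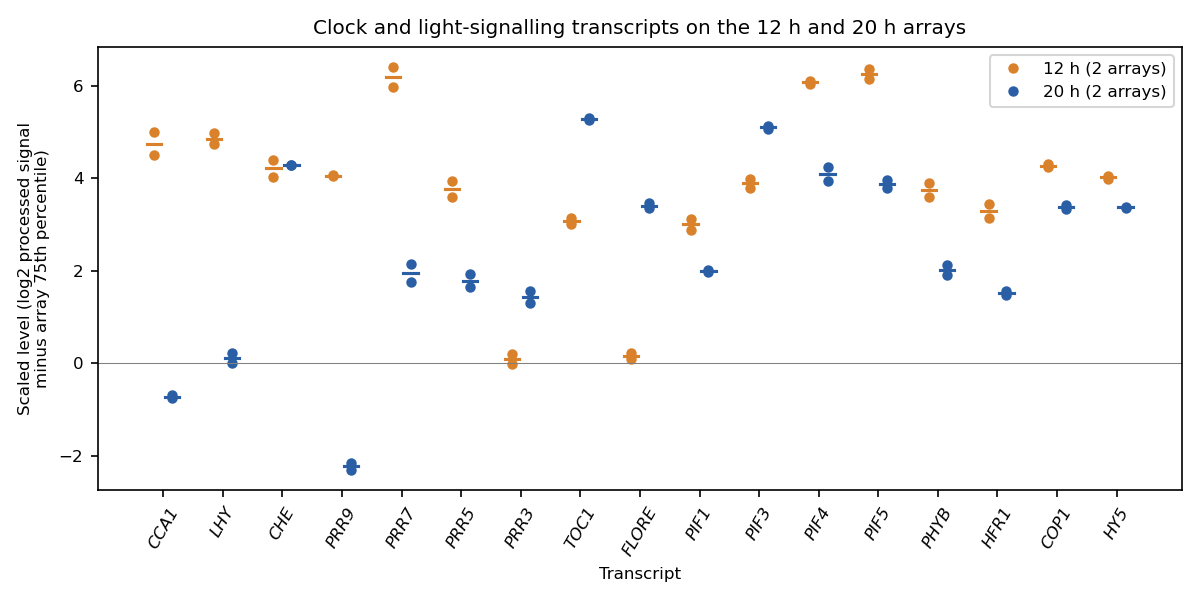
Scaled levels (log2) of clock and light-signalling transcripts on each array are shown as points, orange for 12 h and blue for 20 h, with bars at the means of 2 arrays. CCA1, LHY, PRR9 and PRR7 are high at 12 h and low at 20 h, TOC1, PRR3, FLORE and PIF3 are higher at 20 h, and the 4 points of CHE overlap.

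The other time points place this interval in the course of the clock. CCA1 had a mean of 6.48 at 4 h and 6.55 at 8 h, declined to 4.74 by 12 h and 0.34 by 16 h, and reached -0.73 at 20 h. LHY ran the same way, with 8.21 at 8 h, 4.85 at 12 h and 0.11 at 20 h. Both were thus already past their highest time point at 12 h and were at their lowest at 20 h. PRR9 was highest at 12 h (4.05, against 2.30 at 8 h and 0.03 at 16 h), as was PRR7 (6.19, against 3.19 at 8 h and 5.57 at 16 h). PRR5 was highest at 16 h (5.16), so its difference between 12 h and 20 h spans a maximum. TOC1 (5.77) and PRR3 (3.37) were also highest at 16 h and stayed high at 20 h for TOC1 (5.29) but less so for PRR3 (1.42). PRR9, known as a gene of the morning light, was therefore highest at a time point titled dark. The 0 h and 4 h arrays lie on the other slide, and the 2 arrays at 16 h differ most from each other, so these means are given as a description.

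FLORE, a long non-coding RNA antisense to the gene of the flowering repressor CDF5, had the largest rise among transcripts with a locus code or precursor name. Its levels were 0.09 and 0.22 at 12 h and 3.36 and 3.46 at 20 h. Both 20 h arrays were far above both 12 h arrays, and the rise of 3.26 ± 0.16 (9.55-fold, adjusted p = 8.5e-05) was found with each of its 3 probes (3.26 to 3.52). FLORE was lowest at 8 h, with a mean of -1.40. The CDF5 transcript itself was not among those tested. The other characterised non-coding RNAs did not pass: ASCO, which interferes with alternative splicing, differed by -0.37 ± 0.16, TAS4, a precursor of small interfering RNAs, by -0.29 ± 0.17, and ELENA1, an enhancer of immune gene expression, by -0.23 ± 0.28.

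Of the 10 light-signalling genes, 7 fell, 1 rose and 2 did not pass. Over all transcripts 8.21% fell and 7.09% rose, and over the 91 protein-coding ones, which include these genes, 29.7% fell and 8.79% rose. The median difference of the 10 was -0.96, against -0.41 for protein-coding and 0.03 for all transcripts. With quantile normalization, the authors' series table or the percentile over probes well above background on the 4 arrays, 6 fell. PIF5 and PIF4 are bHLH factors that promote elongation and are removed in light by phytochromes. PIF5 had levels of 6.14 and 6.36 at 12 h and 3.79 and 3.95 at 20 h (difference -2.38 ± 0.20, adjusted p = 0.00073). PIF4 had levels of 6.05 and 6.10 at 12 h and 3.93 and 4.25 at 20 h (difference -1.98 ± 0.18, adjusted p = 0.00092). Neither overlapped between the time points. PIF1, the member that restrains germination and greening, fell by 1.01 ± 0.17 (adjusted p = 0.0095). PIF3 went the other way, from 3.79 and 3.99 to 5.07 and 5.13, a rise of 1.21 ± 0.17 (adjusted p = 0.0052). The PIF factors thus split, with 3 lower and 1 higher at 20 h. The call of PIF1 was lost with the 6 arrays of 8, 12 and 20 h.

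PHYB, the main red-light receptor, had levels of 3.60 and 3.90 at 12 h and 1.91 and 2.12 at 20 h and fell by 1.74 ± 0.19 (adjusted p = 0.0017). HFR1, an atypical bHLH factor of far-red and shade responses, had levels of 3.14 and 3.44 at 12 h and 1.46 and 1.55 at 20 h and fell by 1.79 ± 0.20 (adjusted p = 0.0020). COP1, the ubiquitin ligase that represses light responses in the dark, fell by 0.90 ± 0.16 (adjusted p = 0.013), a call lost with the 6 arrays of 8, 12 and 20 h and without the second 20 h array. In these 3 genes both 20 h arrays were below both 12 h arrays. HY5, a bZIP factor that COP1 targets, was at 4.04 and 3.99 at 12 h and at 3.36 and 3.38 at 20 h. Its difference of -0.65 ± 0.17 passed narrowly (adjusted p = 0.045), was lost when any of the 10 arrays of the fit was left out, and was opposite in sign with 1 of its 3 probes (0.56). PHYA, the far-red receptor, differed by 0.28 ± 0.16 and FHY1, which carries it into the nucleus, by 0.01 ± 0.18, and neither passed.

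Cold and dehydration genes did not move one way: of 6 genes, 2 rose, 1 fell and 3 did not pass (median 0.60), and 3 rose under 4 of the 6 other scalings and background corrections. LTI78, a dehydration-responsive gene also known as RD29A, had levels of 2.14 and 3.01 at 12 h and 0.51 and 0.79 at 20 h. It fell by 1.92 ± 0.30 (adjusted p = 0.0076), and its mean at 16 h (5.87) was above both. COR15B, which encodes a chloroplast protein of cold-acclimated leaves, had levels of 4.72 and 4.57 at 12 h and 5.63 and 5.70 at 20 h. It rose by 1.02 ± 0.17 (adjusted p = 0.0087), but another of its 3 probes differed by -0.77. LTI65 had levels of -0.31 and -0.19 at 12 h and 1.16 and 0.95 at 20 h with the probe used here. That rise of 1.31 ± 0.21 (adjusted p = 0.0082) depends on the probe, since the other 2 probes had differences of the opposite sign, down to -2.56, and the mean of the probes differed by -1.12. None of these 3 calls passed with the 6 arrays of 8, 12 and 20 h. COR15A, a relative of COR15B, differed by 0.69 ± 0.22 (adjusted p = 0.084). Whether probes of the 2 genes share signal was not tested. COR15A passed as a rise in 7 of 17 other settings, among them quantile normalization (1.03, adjusted p = 0.031). COR47, a dehydrin, differed by 0.50 ± 0.22 and KIN1, a small cold-induced protein, by -0.51 ± 0.19, and neither passed.

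Abscisic acid signalling genes likewise split. ABI5, the bZIP factor of abscisic acid responses, had levels of 0.23 and 0.40 at 12 h and 2.06 and 1.82 at 20 h, and rose by 1.63 ± 0.17 (3.10-fold, adjusted p = 0.0017). ABI2, a phosphatase that represses the pathway, had levels of 2.36 and 2.83 at 12 h and 1.36 and 1.48 at 20 h. It fell by 1.17 ± 0.23 (adjusted p = 0.018), a call lost with the 6 arrays of 8, 12 and 20 h, and without the second 12 h array or either 20 h array. The remaining 4 did not pass, among them the phosphatase ABI1 (-0.67 ± 0.23, adjusted p = 0.094) and AFP1, a binding partner of ABI5 (0.39 ± 0.18). AFP1 passed as a rise with normexp under either normalization (0.60 and 0.65). The seed regulators ABI3 and ABI4 were not well above background on either 20 h array. Of the 5 RNA silencing genes looked for, 4 are on the array and none of these passed, but 2 of them did under another setting. NRPD1A, a silencing gene outside this list, passed as a rise and is given under the other observations. DCL1, which processes microRNA precursors, differed by 0.06 ± 0.16, AGO2, a small RNA effector, by -0.24 ± 0.27, NRPD1B, a core subunit of the plant-specific RNA polymerase V, by 0.12 ± 0.33, and STRS1, an RNA helicase, by 0.27 ± 1.02, with the first 12 h spot of STRS1 left out as an outlier. The probes of NRPD1B and STRS1 disagreed, reaching -3.19 and -3.56. With the mean of probes NRPD1B passed as lower at 20 h (-1.40, adjusted p = 0.037), and with normexp and quantile normalization DCL1 passed as higher (0.43, adjusted p = 0.022).

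**Figure D3:**
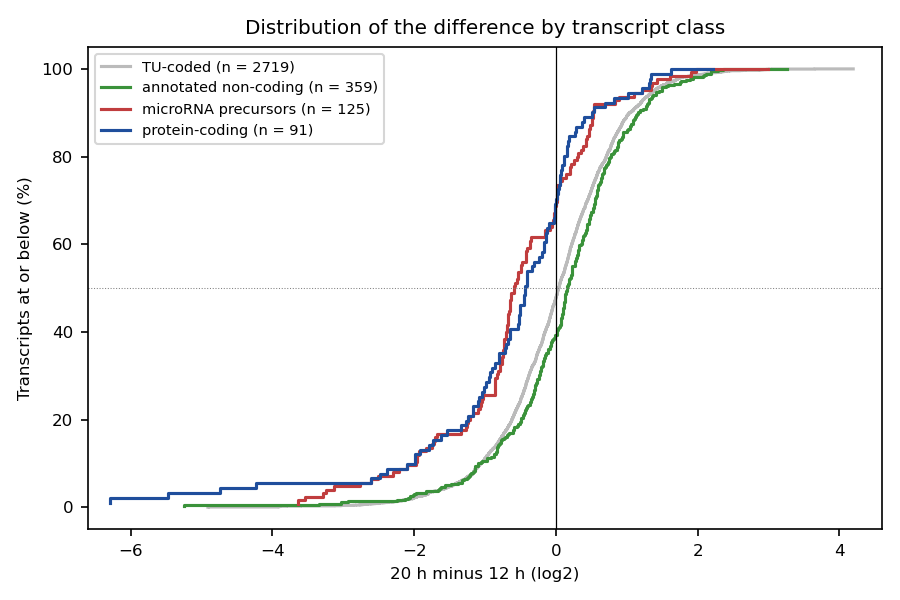
Cumulative share of transcripts (%, vertical) against the difference between 20 h and 12 h (log2, horizontal) for each kind of transcript. The curves of microRNA precursors and protein-coding genes lie to the left of those of TU-coded and annotated non-coding transcripts, with medians of -0.58 and -0.41 against 0.04 and 0.16.

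The kinds of transcript differed in direction. Of 125 microRNA precursor transcripts tested, 37 fell (29.6%) and 6 rose (4.8%), with a median of -0.58. Of 91 protein-coding transcripts 27 fell and 8 rose (median -0.41), a small set that includes the clock and light genes above. Of 359 annotated non-coding transcripts 45 fell and 62 rose (median 0.16), or 47 and 45 with the 75th percentile taken over all probes, and of 2719 TU-coded transcripts 162 fell and 156 rose (median 0.04). Outside the microRNA precursors 234 of 3177 transcripts fell and 228 rose.

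For the microRNA precursors the direction depends on how background is treated. Among the 85 precursors that were well above background on all 4 arrays 29 fell and 5 rose, with a median of -0.54, while over all 1676 such transcripts 179 fell and 182 rose (median 0.10). With dim transcripts set at their detection bounds the median of the precursors was -0.46. With normexp and quantile normalization 42 precursors fell and 12 rose (median -0.12), while over all transcripts 293 fell and 316 rose. With normexp background correction scaled to the 75th percentile, which raised the median of all transcripts to 0.35, the precursors had a median of 0.23, and 9 fell and 7 rose. Under that setting 3 precursors of MIR156 and MIR157, 2 of the auxin response families and 1 of MIR159 and MIR319 fell, none of the phosphate and copper families did, and MIR163, MIR850 and MIR863 still fell. The count that fell was 2 with the 4 arrays alone, 16 within the slide, 23 without either 4 h array, 22 once the first 12 h array was dropped and 19 once the second 20 h array was dropped. Leaving out each array in turn, 18 of the 37 never lost their call and 15 lost it in 5 or more of the 10 fits. Leaving out either array of 0 h, of 4 h or of 8 h gives the same fit unless a spot was left out as an outlier. The 10 fits are therefore not 10 separate checks, here and wherever such counts are given. Per array, the median deviation of the precursors from their own mean was 0.19 and 0.09 at 12 h and -0.24 and -0.36 at 20 h.

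MicroRNAs are cut from such precursors by DCL1 and guide the silencing of target transcripts. The array reports the precursor transcript, not the mature microRNA. MIR163, whose product targets methyltransferase genes, had levels of 2.93 and 2.43 at 12 h and -0.66 and -1.04 at 20 h. It fell by 3.53 ± 0.24 (11.6-fold, adjusted p = 0.00031), and its mean had stayed between 2.12 and 2.68 from 0 h to 12 h. MIR850 had levels of 2.63 and 2.64 at 12 h and -0.19 and -0.07 at 20 h, and fell by 2.77 ± 0.16 (adjusted p = 0.00017). MIR863 had levels of -0.15 and -0.24 at 12 h and -2.58 and -2.42 at 20 h, and fell by 2.30 ± 0.17, although 1 of its 3 probes went the other way. MIR850 and MIR863 lie inside the non-coding locus AT4G13495 in the gene table. Both transcripts of that locus fell too, AT4G13495.1 by 1.62 ± 0.16 (6.45 and 6.49 at 12 h, 4.81 and 4.88 at 20 h) and AT4G13495.2 by 2.00 ± 0.19 (6.92 and 7.06 at 12 h, 4.92 and 5.06 at 20 h), and whether the 4 probes report shared RNA was not tested.

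MIR167d, of the family that targets auxin response factors, fell by 3.13 ± 0.17 (adjusted p = 0.00013), from 0.84 and 0.63 at 12 h to -2.44 and -2.35 at 20 h. AT1G31173.1, the longer transcript named for the same locus, had levels of 2.39 and 2.05 at 12 h and -1.02 and -1.01 at 20 h (difference -3.24 ± 0.19, adjusted p = 0.00017). Both names thus gave the same direction and nearly the same size. In the families of auxin response (MIR160, MIR164 and MIR167) 4 of 11 fell and 1 rose, against 37 and 6 of 125 over all precursors. In both counts of falls MIR167d and AT1G31173.1 count as 2, although they name 1 locus. The counts of this family and of those below are small, were not tested, and are to be read beside that share of 29.6% that fell. MIR160a (at least 2.49-fold lower, adjusted p = 0.026) and MIR160b (2.10-fold lower, adjusted p = 0.017) were not well above background on either 20 h array. The fold of MIR160a is therefore a lower bound. That of MIR160b is the fitted value, because its 20 h signals lay above the lowest well measured signals of those arrays. Each lost its call without 3 of the 10 arrays in turn, and with normexp and the 75th percentile their differences were 0.11 and 0.27. MIR160c rose by 0.83 ± 0.20 (adjusted p = 0.038), a call lost without 9 of the 10 arrays in turn.

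Phosphate starvation precursors (MIR399 and MIR827, whose products act on phosphate transport and its regulators) held 3 of 7 members that fell, all of them dim. With normexp 0 fell under the 75th percentile and 3 under quantile normalization. MIR399c, measured by 1 probe, was at -4.30 and -4.43 at 12 h and not well above background on either 20 h array. That gives at least 2.92-fold lower at 20 h (adjusted p = 0.0083), but with normexp and the 75th percentile its difference was 0.09. The call of MIR399c was also lost with the 6 arrays of 8, 12 and 20 h. MIR399d was at least 3.66-fold lower (adjusted p = 0.0025) and MIR827 at least 1.98-fold lower (adjusted p = 0.00073), and with normexp and the 75th percentile their differences were -0.037 and 0.18. MIR399f, the next largest, did not pass (adjusted p = 0.084). MIR849, a precursor with a further large fall (at least 2.91-fold, adjusted p = 0.0022), went the other way with 2 of its 3 probes.

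**Figure D4:**
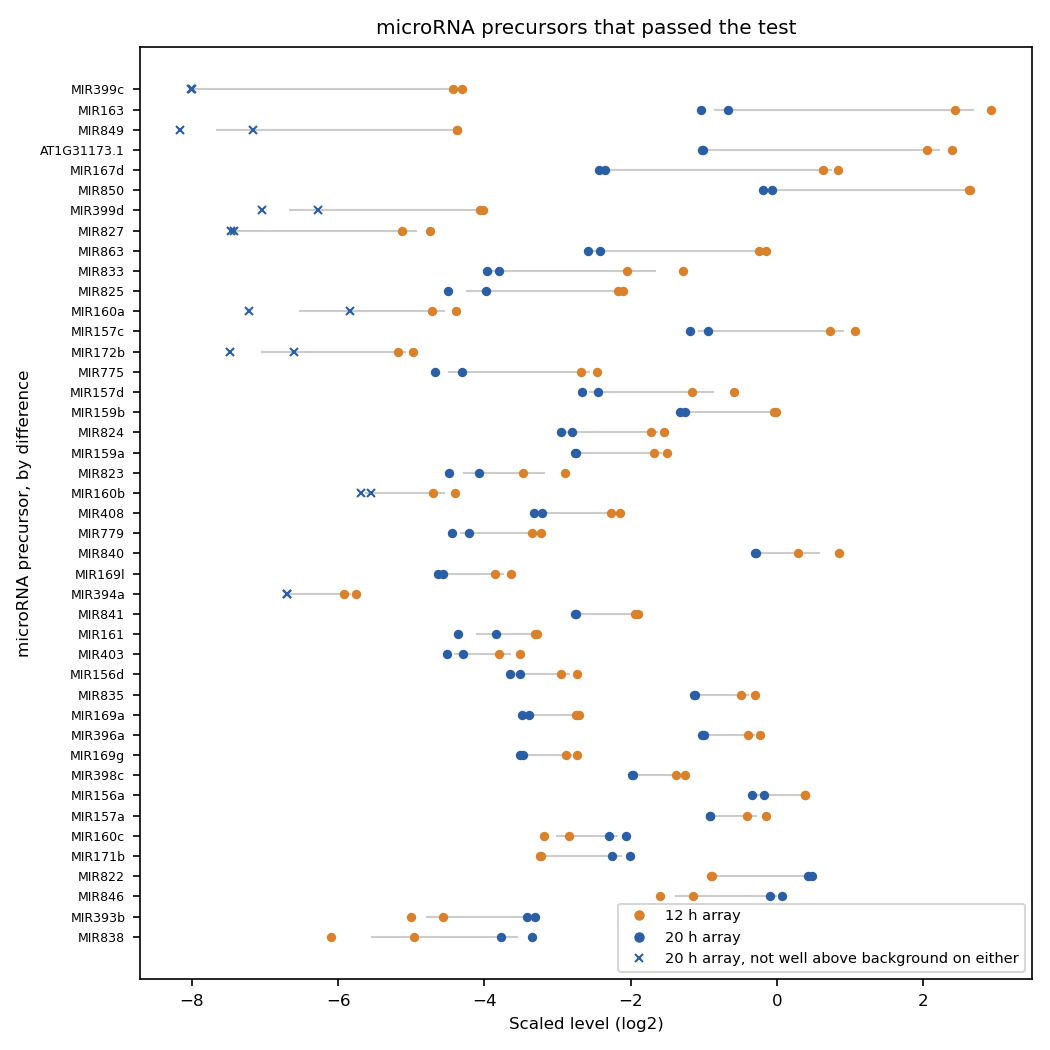
Scaled levels (log2, horizontal) of the 43 microRNA precursor transcripts that passed the test, ordered by difference; orange points are 12 h arrays, blue points 20 h arrays, and crosses mark precursors not well above background on either 20 h array. For the 37 that fell both 20 h values lie left of both 12 h values of the same precursor, and for the 6 at the foot of the plot the order is turned.

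MIR156 and MIR157, which hold plants in the juvenile phase by acting on SPL factors, had 5 of 12 members lower and none higher at 20 h. MIR157c was the largest, from 1.06 and 0.73 at 12 h to -1.18 and -0.94 at 20 h (difference -1.96 ± 0.20, adjusted p = 0.0013). MIR157d fell by 1.68 ± 0.24, with 1 of its 2 probes opposite, and MIR156d, MIR156a and MIR157a fell by 0.74, 0.64 and 0.63. Leaving out 1 array at a time, the calls of these last 3 were lost in 7, 10 and 9 of 10 fits, and MIR156d was at 0.032 with normexp and the 75th percentile. The 7 others of this family did not pass, and 2 of them, MIR156f and MIR156g, were not well above background on either 20 h array. MIR159a (-1.17 ± 0.17) and MIR159b (-1.27 ± 0.16), which act on MYB factors of the gibberellin response, were the 2 of 6 MIR159 and MIR319 precursors that fell.

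Copper-responsive precursors (MIR397, MIR398, MIR408 and MIR857) had 2 of 5 members lower, and 0 with normexp and the 75th percentile. MIR408 fell by 1.06 ± 0.17 (adjusted p = 0.0087) and MIR398c by 0.65 ± 0.16 (adjusted p = 0.041). The call of MIR398c was lost without any 1 of the 10 arrays and in 9 of 17 other settings. MIR397b did not pass (adjusted p = 0.093) and was not well above background on either 12 h array. None of the 8 MIR165 and MIR166 precursors, whose products set leaf polarity through HD-ZIP factors, passed, and their median was 0.04; with normexp and quantile normalization 2 of them rose. In the families that act on silencing genes (MIR162, MIR168 and MIR403), 1 of 5 fell, MIR403 by 0.74 ± 0.19. That call was lost without 9 of the 10 arrays in turn, and with normexp and the 75th percentile the difference was 0.17. Of 17 precursors in the families MIR169, MIR393, MIR394 and MIR395, which respond to nutrients or act on auxin receptors and other regulators, 4 fell and 1 rose.

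The 6 precursors that rose were MIR838, MIR393b, MIR846, MIR822, MIR171b and MIR160c, by 0.83 to 1.97. MIR822 had levels of -0.90 and -0.88 at 12 h and 0.42 and 0.48 at 20 h (rise 1.34 ± 0.19, adjusted p = 0.0054). MIR393b, whose product acts on auxin receptors, rose by 1.42 ± 0.23 (adjusted p = 0.0084), and MIR171b, which acts on GRAS factors, by 1.1 ± 0.17 (adjusted p = 0.0082). MIR838 lies inside the DCL1 gene, which did not pass. It rose by 1.97 ± 0.39 (adjusted p = 0.017; lost without either 20 h array and with all 12 arrays) from a level well above background on 1 of the 2 arrays at 12 h. MIR846 rose by 1.36 ± 0.30 with 2 of its 3 probes opposite, and lost its call without 5 of the 10 arrays in turn.

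Most precursors that fell had their extreme values at the time points compared. Among the 37, the mean was lowest at 20 h in 30 and highest at 12 h in 20, while among all 271 transcripts that fell 188 were lowest at 20 h and 147 highest at 12 h. The contrast itself favours these positions, so the counts are a description.

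Annotated non-coding RNAs made up 9 of the 12 largest rises and 3 of the 12 largest falls that passed, among transcripts with a locus code or precursor name. Only transcripts whose arrays did not overlap between 12 h and 20 h were ranked. The largest upward difference of a tested microRNA precursor, 2.99, did not pass. Annotated non-coding RNAs were also the largest kind with such names, with 359 tested against 125 microRNA precursors and 91 protein-coding transcripts. They held 62 rises against 6 and 8, and 45 falls against 37 and 27. AT5G53048.1, a long non-coding RNA that overlaps the protein-coding gene AT5G53050 in the gene table, had levels of 2.47 and 2.45 at 12 h and -2.61 and -2.98 at 20 h. Its fall of 5.25 ± 0.18 (38.0-fold, adjusted p = 2.6e-05) was of the same order as those of the clock genes, and all 3 probes gave it. Its mean at 0 h was 1.21, and the means were -1.24 at 4 h, -0.12 at 8 h and 1.59 at 16 h, which leaves 12 h as its highest time point. AT3G06125.1 fell by 3.33 ± 0.17 (adjusted p = 0.00011), from -0.32 and -0.09 to -3.48 and -3.60. The other 2 transcripts of that locus fell less, AT3G06125.2 by 2.06 ± 0.19 and AT3G06125.3 by 1.15 ± 0.18. AT4G31398.1, which overlaps CTF7, an acetyltransferase gene of sister chromatid cohesion, fell by 3.04 ± 0.20 (adjusted p = 0.00025).

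**Figure D5:**
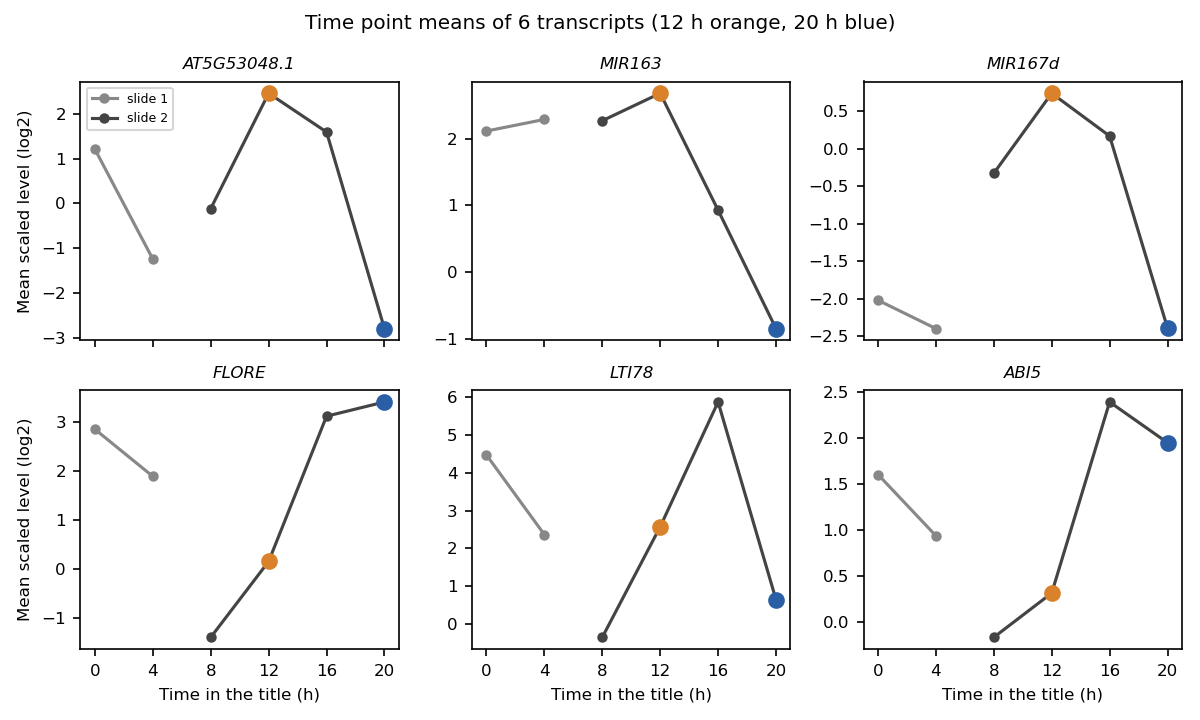
Mean scaled levels (log2, vertical) of 6 transcripts at each time in the titles (h, horizontal), with the first slide in light grey, the second in dark grey, and 12 h and 20 h marked in orange and blue. AT5G53048.1, MIR163 and MIR167d are highest at 12 h, FLORE is highest at 20 h, and LTI78 and ABI5 are highest at 16 h.

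Among the rises, AT5G37485.1 went from -2.39 and -3.10 at 12 h to -0.63 and -0.30 at 20 h (2.28 ± 0.28, adjusted p = 0.0031). AT2G45685.1, which overlaps the TCP9 transcription factor gene, went from -4.10 and -3.77 to -1.85 and -1.64 (2.19 ± 0.19, adjusted p = 0.00073). AT5G67488.1 rose by 2.18 ± 0.20, AT3G06962.1 by 2.12 ± 0.28 and AT2G35637.1 by 2.08 ± 0.17. AT4G38545.2, which overlaps the phospholipase gene PLC1 and the gene AT4G38540, rose by 1.93 ± 0.20. AT2G13431.1, listed as a pseudogene, rose by 1.89 ± 0.21. In these 7 transcripts both 20 h arrays were above both 12 h arrays. AT3G06962.1, however, was well above background on only 1 of the 2 arrays at 12 h, and another of its probes differed by 0.065. Its difference was as low as 0.37 in another setting, and its call was lost with the mean of probes. Less certain were AT1G77215.1, whose locus is not in the gene table (2.38 ± 0.60, adjusted p = 0.042), which lost its call without any 1 of 8 arrays, and AT2G42388.1 (2.09 ± 0.51, adjusted p = 0.044), which lost it without any 1 of 6. The second 12 h spot of AT2G42388.1 had been left out as an outlier, and 1 of its 3 probes was opposite.

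Over the annotated non-coding transcripts, 44 of the 62 that rose (71.0%) and 23 of the 45 that fell (51.1%) overlap a protein-coding gene in the gene table, against 224 of all 359 tested (62.4%). The table gives overlap without strand. The 3 tested transcripts that overlap small nucleolar RNA genes all fell, AT1G26235.1 by 1.1, AT2G43375.1 by 0.69 and AT2G46192.1 by 0.61, the last being the smallest difference that passed on the array. Leaving out 1 array at a time, these calls were lost in 6, 8 and 10 of 10 fits, and AT2G43375.1 was at -0.0076 with normexp and the 75th percentile.

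The TU-coded transcripts held most calls by number (318) but a smaller share (11.7% of 2719). Where several probes measured a called TU transcript, all had the same sign in 175 of 317, against 154 of 173 for called transcripts with a locus code or precursor name. AT4TU026290 fell by 4.91 ± 0.34 (adjusted p = 0.00031), from 0.79 and 0.97 at 12 h to -3.94 and -4.12 at 20 h. AT4TU026300, which has the next number in the code, fell by 3.92 ± 0.24 (adjusted p = 0.00018). Only TU transcripts that passed and whose arrays did not overlap between the time points were ranked. The largest rises were less even: AT3TU007390 was at -5.76 and -2.96 at 12 h and -0.16 and -0.18 at 20 h (4.19 ± 0.82, adjusted p = 0.017), and AT3TU019640 was at least 4.10-fold higher at 20 h (adjusted p = 0.044), a call lost without any 1 of 9 arrays.

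For the 505 transcripts that passed, the time point between the 2 compared was examined as a description. The 16 h mean lay between those of 12 h and 20 h in 329 of them, above both in 125 and below both in 51. LTI78, ABI5, PRR5, PRR3 and TOC1 were among those above both, so for them the change from 12 h to 20 h does not run one way.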

How the data were processed

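The authors' one-colour arrays (Cy3, 0.5 µg RNA) were quantified with Agilent Feature Extraction 10.5.1.1, per the file headers, and the deposited files give each spot's intensity on a linear scale, with its processed (background-corrected) signal and marks for spots above background or outlying. The authors also deposited a series table of log2 values for these arrays (column medians of 1.37). Its method is not stated in the sources used here, and it served as an alternative. Groups and replicate numbers came from the titles.

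Processed signals were put on the log2 scale, and each array's 75th percentile, taken over 2876 probes that all 12 arrays measured well above background, was subtracted. Control spots (536) and outlier spots were left out. Each transcript name took its probe with the highest mean level, and entered the test where both arrays of 1 or more time points showed it well above background. limma 3.58.1 in R 4.3.3 was fitted with 1 mean per time point to 10 arrays, without 16 h (5 residual degrees of freedom). The contrast was 20 h minus 12 h, adjusted by Benjamini-Hochberg over 3302 transcripts with a threshold of 0.05. The procedure was also run on simulated data with independent noise, without a background floor, disagreement of probes or position on the slide. That run therefore does not test those limits. Errors are standard errors of the log2 difference, and the number of arrays limits their precision. Where both arrays of a time point left a probe in the background, the fold is a bound. The bright mean was set against a floor for the dim arrays, each array's floor being its lowest well measured signal or, if higher, the signal of the probe. Where the signal of the probe was higher on both dim arrays, as for MIR160b, the fold is the fitted one.

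Named transcripts were the 12 largest rises and falls with a locus code or precursor name, the 2 largest TU-coded of each direction, all members of the gene lists, and examples among the microRNA precursors by size; AT4G13495 and AT3G06125 transcripts, those at small nucleolar RNA genes and further precursors were added after their values were seen. The members and lists were chosen with earlier results of these data known. No list was tested. Locus codes were matched to a TAIR10.1 gene table (400 of 405 loci); the headers name an older build, so no coordinates are given. For normexp the median spot signal was used, since the mean signal is not in the files used here. Promoter motifs were not analysed here.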

Additional observations from a re-analysis of the deposited data

How the results depend on the processing

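For the 60 transcripts named by size or list, 1442 of 1608 refits kept their direction and their side of the threshold, 114 lost the call, 20 gained one and 32 changed sign. For the 39 further transcripts described, all of which had passed, 804 of 1048 refits kept both, 238 lost the call and 6 changed sign. Refits that only add or drop arrays of other time points, filter transcripts or model the spread leave the difference itself unchanged. For these the direction was fixed in advance, so both tallies overstate how far it was checked. Leaving out either array of 0 h, of 4 h or of 8 h also gives the same fit unless a spot was an outlier. The number of calls moved from 505 to 13 with the 4 arrays alone, 143 within the second slide, 308 with normexp and the 75th percentile (68.5% rises against 46.3%), 259 without a filter on dim probes and 284 with array weights. The precursors that fell moved from 37 to 2, 16, 9, 20 and 20 in the same order. Other settings gave more calls. They were 677 of 2267 transcripts well above background on both arrays of 12 h or of 20 h, and 587 of 1676 on all 4 arrays. With a spread that varies with intensity 661 passed, and with normexp and quantile normalization 609. Leaving out 1 array gave 236 to 442 calls and 19 to 29 fallen precursors. Rises made up 35.5% of calls with the percentile over all probes, 34.3% within the slide, 7.69% with the 4 arrays, and 35.4% or 30.9% when the first or the second 20 h array was dropped. With the 4 arrays the lower counts come with fewer residual degrees of freedom; the cause of the others was not tested. Signal over background limits the dim transcripts.

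With the replicate number as a block 480 transcripts passed (225 rises) and 32 precursors fell. Same-numbered 12 h and 20 h arrays deviated together at r = 0.177 with only 2 numbers, which does not show a pairing.

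With normexp and the 75th percentile the difference was 0.087 for MIR399c, 0.11 for MIR160a, 0.27 for MIR160b, 0.18 for MIR827, 0.032 for MIR156d, 0.17 for MIR403, 0.063 for EM1, 0.0078 for AGO2, -0.39 for FHY1, 0.35 for ABI4, 0.32 for ABI3, 0.15 for TAS4, 0.34 for ELENA1, -0.19 for CHE and 0.19 for KIN1. With normexp and quantile normalization it was -0.025 for PHYA, -0.50 for COR47, 0.15 for ASCO and -0.42 for FHY1. With the percentile over all probes it was -0.044 for DCL1, -0.086 for FHY1 and -0.024 for CHE. COR47 was at -0.25 with quantile normalization and -0.33 in the authors' table. With the mean of probes it was -0.46 for COR47, -1.33 for STRS1, -2.9e-05 for FHY1, -1.40 for NRPD1B, -0.21 for CHE and -1.12 for LTI65. Leaving out 1 array at a time moved AGO2 from -0.63 to 0.16, STRS1 from -0.10 to 0.64, FHY1 from -0.14 to 0.16, NRPD1B from -0.19 to 0.42, ELENA1 from -0.49 to 0.040 and CHE from -0.10 to 0.26. Among these the list genes other than LTI65 had not passed in the main analysis. NRPD1B passed as lower with the mean of probes.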

Other observations

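Protein-coding genes outside the lists were read after their values were seen. AT1G24148.1 had levels of 3.95 and 3.94 at 12 h and 1.35 and 1.31 at 20 h and fell by 2.61 ± 0.17 (adjusted p = 0.00025). MYB3, a repressor of phenylpropanoid genes, fell by 1.54 ± 0.17 (adjusted p = 0.0019), from 4.30 and 4.48 to 2.78 and 2.93. The jasmonate repressors JAZ5 and TIFY7 fell by 1.04 ± 0.17 and 0.80 ± 0.18, and TIFY7 lost its call without 5 of the 10 arrays in turn. TSB2, a tryptophan synthase subunit, fell by 1.33 ± 0.19. EM1, a late embryogenesis protein gene, was at least 2.81-fold lower at 20 h, where it was not well above background, but its difference was 0.063 with normexp and the 75th percentile. NRPD1A, the largest subunit of RNA polymerase IV, rose by 0.82 ± 0.18 and LAF1, a MYB factor of far-red light signalling, by 1.34 ± 0.27. NRPD1A lost its call without 5 of the 10 arrays in turn and in 9 of 17 other settings, and LAF1 lost it in 4 of 17 and was at 0.011 with normexp and quantile normalization.

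Some non-coding transcripts that passed overlap well-known genes that were not themselves among the transcripts tested. AT5G15845.1, which overlaps the flowering-time gene CO, rose by 1.36 ± 0.21 (adjusted p = 0.0075), from -1.12 and -0.76 at 12 h to 0.33 and 0.52 at 20 h. AT5G15845.1 also overlaps the protein-coding genes COL1, PCME and AT5G15853. AT2G33815.1, which overlaps the phase-change factor gene SPL3, fell by 1.38 ± 0.19 (adjusted p = 0.0054), with 1 probe opposite. AT3G51238.1, which overlaps the flavonoid gene F3H, fell by 1.66 ± 0.37 (adjusted p = 0.027), a call lost without 2 of the 10 arrays in turn and in 5 of 17 other settings.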
